A study of Homo sapiens with 4 samples.

Results

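Arsenic trioxide and GSK458 were set directly against each other in TOV21G cells, a human line from an ovarian clear cell carcinoma. The deposited table listed 26255 gene symbols in 4 libraries of RNA prepared with a stranded mRNA kit, 1 library in each group. The control culture received no drug, and the others received As2O3 at 1 µM, GSK458 at 0.1 µM or both drugs at those doses, each for 48 h, while no source used here gives a time for the control. As2O3 is arsenic trioxide, a drug that binds protein thiols, and GSK458 is an inhibitor of PI3K and mTOR. The comparison took 12190 genes, those whose average over the 4 libraries reached 1 FPKM, after 70 small RNA symbols were left out. FPKM is a level per length of transcript and per depth of the library. Each gene's difference was log2(FPKM + 1) with As2O3 minus log2(FPKM + 1) with GSK458, so positive values stand for a higher level with As2O3, and low genes are understated by the added 1. The control was used to say which drug stood away from untreated cells. The doses differ and no effect was matched between them, and each drug is represented by 1 culture of 1 cell line. No replicate error, interval or test was possible, and every value below describes these libraries.

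As background, trivalent arsenic reacts with cysteines of KEAP1, which frees the transcription factor NRF2 to act on antioxidant genes through the antioxidant response element. Stress kinases acting on eIF2 raise translation of ATF4, which drives genes for amino acid synthesis, amino acid import and tRNA charging, and mTOR complex 1 also increases ATF4 output. PI3K signals through AKT and mTOR to growth, lipid synthesis and entry into S phase. AKT keeps FOXO transcription factors out of the nucleus. Genes for mitosis are repressed in non-dividing cells through the DREAM complex, which binds the cell cycle homology region, often beside CCAAT boxes bound by NF-Y.

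The sequences that go with the largest gene groups of the comparison are promoter windows, taken from the RefSeq promoter table of GRCh38.p14 and printed 5′ to 3′ on the strand of the gene. The first set comes from genes of amino acid supply that stood higher with As2O3. Capitals mark the amino acid response element core TGATGNAA, bound by ATF4 with C/EBP partners, or its reverse complement. ASNS lay at chr7:97872443-97872502 (minus strand), GOT1 at chr10:99430789-99430848 (minus strand) and AARS at chr16:70289660-70289719 (minus strand). GOT1, a transaminase of aspartate, was chosen for its motif after its values were seen.
ASNS: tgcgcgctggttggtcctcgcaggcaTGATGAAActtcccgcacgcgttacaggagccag
GOT1: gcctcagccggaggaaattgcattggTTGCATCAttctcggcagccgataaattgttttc
AARS: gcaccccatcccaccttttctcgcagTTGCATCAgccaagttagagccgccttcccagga

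The second set comes from mitotic genes that stood lower with GSK458. Capitals mark the cell cycle homology region TTTGAA and the CCAAT box, which reads ATTGG on the other strand. PLK1 lay at chr16:23678804-23678873 (plus strand), CDC20 at chr1:43358871-43358940 (plus strand) and MKI67 at chr10:128126439-128126528 (minus strand). In the MKI67 window the last homology region and the last box overlap.
PLK1: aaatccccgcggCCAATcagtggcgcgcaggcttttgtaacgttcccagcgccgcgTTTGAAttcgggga
CDC20: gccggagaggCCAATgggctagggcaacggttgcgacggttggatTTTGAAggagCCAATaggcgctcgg
MKI67: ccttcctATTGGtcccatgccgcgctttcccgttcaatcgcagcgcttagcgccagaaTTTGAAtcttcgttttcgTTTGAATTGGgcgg

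Summed FPKM over all symbols lay between 543975 and 588892 in the 4 libraries, with 9.51% to 11.5% of each sum in the 10 highest genes. FPKM values keep no read count, so absolute depth is unknown, and the value of 1 read in low genes put the As2O3 library at 88.7% of the depth of the GSK458 library. The label of ovarian clear cell carcinoma was checked against markers. ANXA4, an annexin abundant in this tumour type, stood at 156 FPKM with As2O3, 297 FPKM with GSK458, 309.6 FPKM in the control and 287 FPKM with both drugs, present in every library and lowest with As2O3. PAX8, a transcription factor of Müllerian epithelium, lay between 83.6 FPKM and 149 FPKM, and the keratins KRT8 and KRT18 were at 166 FPKM or more in every library. NAPSA, CDH1, EPCAM and KRT19, which also mark such tumours, were below the filter. Among markers of other cells, PTPRC, CD3D, CD3E, KDR and TEK were listed at 0 in all 4 libraries. Summed fibroblast markers were 26.2 FPKM with As2O3 and 48.0 FPKM with GSK458, mostly from ACTA2, while DCN, LUM and COL3A1 were at or near 0. Summed immune markers were 5.36 FPKM and 3.06 FPKM, led by CD68 with As2O3. ENG was the only endothelial marker that passed the filter, at 7.79 FPKM with As2O3 and 6.36 FPKM with GSK458. Of these lists 2 of 10 fibroblast, 2 of 12 immune and 1 of 8 endothelial genes passed the filter, and only these entered the sums. Their part in the results was not tested.

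Over the 12190 genes the median difference was 0.01, and 51.5% stood higher with As2O3. A difference of at least 2-fold on the FPKM + 1 scale was found in 878 genes, 7.2% of those compared. The larger set was higher with As2O3, with 574 genes (4.71%), and 304 genes (2.49%) were higher with GSK458. The asymmetry was wider at larger folds, with 158 against 15 genes at 4-fold and 38 against 3 genes at 8-fold. At the 2-fold limit, NDC1 stood just inside at 1.002 and SPSB1 just outside at 0.999, while HIST1H2AE was just inside at -1.001 and NATD1 just outside at -0.999. At the limit on the mean, CSF3R entered with 1.001 FPKM and LOC101927043 did not with 0.999 FPKM.

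**Figure D1:**
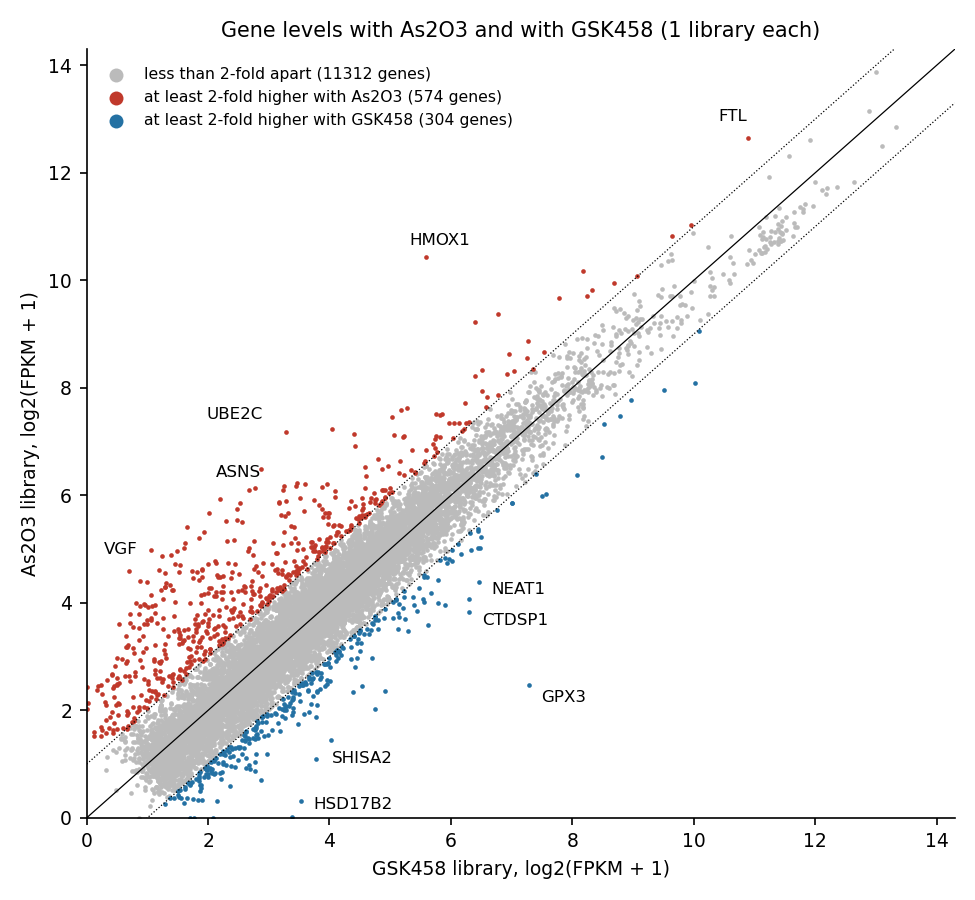
Each point is 1 of 12190 genes, with log2(FPKM + 1) in the GSK458 library on the x axis and in the As2O3 library on the y axis. Dotted lines mark 2-fold. The 574 genes above the upper line reach farther from the diagonal than most of the 304 below the lower line, with HMOX1 and GPX3 as the far points on either side.

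The 3 genes taken as markers of the contrast, HMOX1, GPX3 and ASNS, showed 3 patterns over the libraries. HMOX1, which degrades haem to biliverdin, iron and carbon monoxide, stood at 1375 FPKM with As2O3, 47.2 FPKM with GSK458, 30.3 FPKM in the control and 1949 FPKM with both drugs. It was high in both libraries that received As2O3 and low in the other two, and the difference of 4.84, or 28.5-fold, was the highest of the genes with at least 5 FPKM in either library. GPX3, a secreted glutathione peroxidase, stood at 4.55 FPKM with As2O3, 155 FPKM with GSK458, 2.12 FPKM in the control and 144 FPKM with both drugs. This was the mirror pattern, high in both libraries that received GSK458, with a difference of -4.82. ASNS, which makes asparagine, stood at 67.8 FPKM with As2O3, 8.41 FPKM with GSK458, 16.1 FPKM in the control and 10.2 FPKM with both drugs, high with As2O3 alone and low once GSK458 was present, with a difference of 2.87.

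The genes higher with As2O3 were mostly genes whose level was low with GSK458. Of the 574 genes, 325 (56.6%) were at least 2-fold below the control with GSK458 while As2O3 stayed within 2-fold, and 92 (16%) were at least 2-fold above the control with As2O3 alone. In 8 genes the drugs stood on opposite sides of the control by 2-fold, in 7 both stood on the same side, and in 142 (24.7%) neither reached 2-fold. Of the 304 genes higher with GSK458, 96 were above the control with GSK458 alone, 54 were below it with As2O3 alone, and 152 (50%) reached 2-fold with neither. GSK458 was the drug farther from the control in 411 of the 574 genes and in 174 of the 304. For reference, 3.76% of all genes were at least 2-fold below and 2.21% above the control with GSK458, against 1.29% and 1.94% with As2O3. Both differences share the control library, so an error in it enters both.

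**Figure D2:**
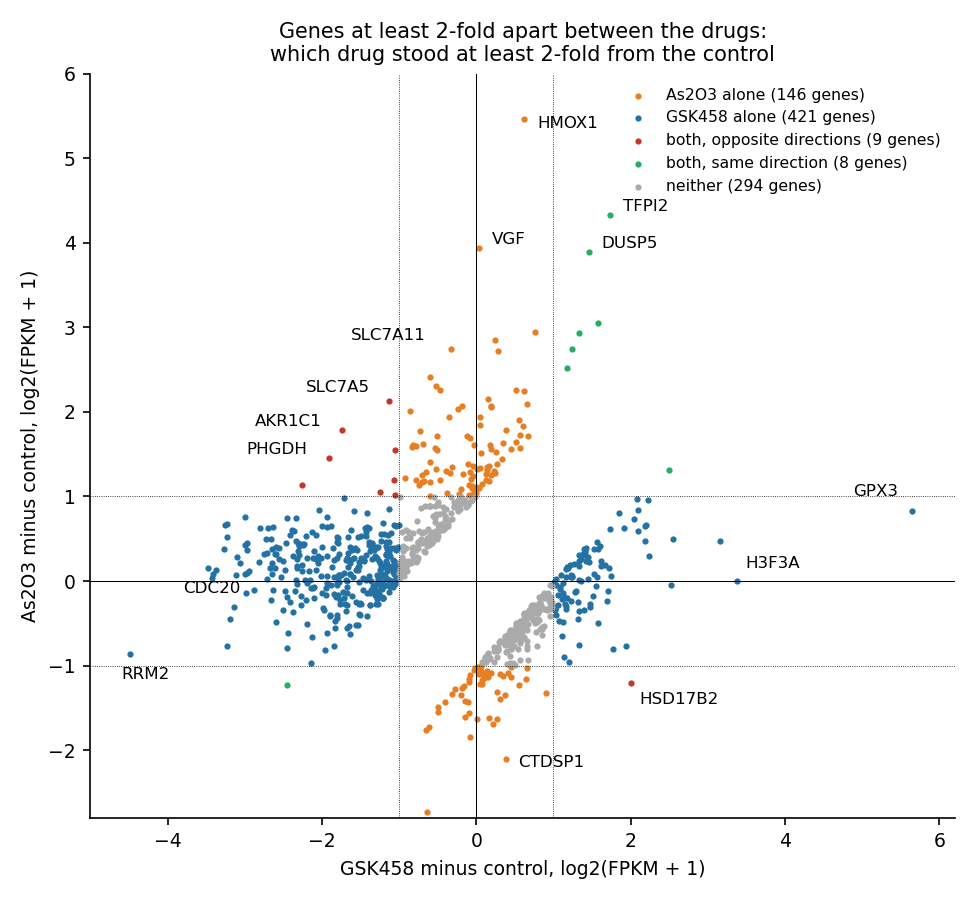
The 878 genes at least 2-fold apart between the drugs, with GSK458 minus control on the x axis and As2O3 minus control on the y axis, both as log2(FPKM + 1) and both from the same control library. The empty diagonal band comes from the 2-fold rule, and the densest cloud, at the left near 0 on the y axis, holds genes low with GSK458 and near the control with As2O3.

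The 8 genes on opposite sides of the control were ABCB6, AKR1C1, BHLHE40, HJURP, INSIG1, PHGDH, SLC7A5 and TNFRSF6B. PHGDH, the first enzyme of serine synthesis, stood at 69.4 FPKM with As2O3, 5.87 FPKM with GSK458, 24.7 FPKM in the control and 6.47 FPKM with both drugs. SLC7A5, which imports leucine and other large neutral amino acids, stood at 52.5 FPKM with As2O3, 4.59 FPKM with GSK458, 11.2 FPKM in the control and 9.69 FPKM with both drugs. In both genes As2O3 was the highest library and GSK458 the lowest, giving differences of 3.36 and 3.26. In the other direction HSD17B2, which oxidises estradiol to estrone, was the 1 such gene, at 0.242 FPKM with As2O3, 10.5 FPKM with GSK458, 1.87 FPKM in the control and 10.4 FPKM with both drugs.

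Genes that both drugs placed above the control, and As2O3 farther, were DUSP5, GADD45A, GDF15, SAT1, TFPI2 and TXNRD1, while FGB was below it with both. TFPI2, a protease inhibitor secreted by clear cell carcinomas, stood at 664 FPKM with As2O3, 109 FPKM with GSK458, 32 FPKM in the control and 301 FPKM with both drugs. GDF15, a secreted stress hormone, stood at 836 FPKM with As2O3, 300.5 FPKM with GSK458, 99.9 FPKM in the control and 652 FPKM with both drugs. SAT1, which acetylates polyamines, stood at 905 FPKM with As2O3, 319 FPKM with GSK458, 134 FPKM in the control and 485 FPKM with both drugs. In these 3 genes the control was lowest, GSK458 came next and As2O3 was highest, with the combination between the drugs. SHH, the Sonic hedgehog ligand, was the 1 gene above the control with both and higher with GSK458, at 3.97 FPKM with As2O3, 10.3 FPKM with GSK458, 0.994 FPKM in the control and 11.2 FPKM with both drugs.

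Antioxidant genes formed the first group that stood high with As2O3. The 5 lists of haem and iron, cystine and glutathione, thioredoxin, NADPH and quinone reductase genes held 42 genes compared. Of these, 17 stood at least 2-fold higher with As2O3 and 0 with GSK458, against 4.71% and 2.49% of all genes. In 16 of the 17 As2O3 was the drug farther from the control. Medians per list ran from 0.53 for the thioredoxin system to 1.07 for the quinone and carbonyl reductases, beside 0.01 for all genes.

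Cystine import and glutathione synthesis gave some of the widest gaps. SLC7A11, the cystine carrier of system xc-, stood at 11.2 FPKM with As2O3, 0.448 FPKM with GSK458, 0.814 FPKM in the control and 17.6 FPKM with both drugs, below 1 FPKM in both libraries without As2O3. GCLM, the modifier subunit of glutamate-cysteine ligase, stood at 41.4 FPKM with As2O3, 9.61 FPKM with GSK458, 8.56 FPKM in the control and 33.4 FPKM with both drugs. GCLC, the catalytic subunit, stood at 21.3 FPKM with As2O3, 8.68 FPKM with GSK458, 7.77 FPKM in the control and 23.7 FPKM with both drugs. Both subunits were high in the 2 libraries with As2O3 and close to the control with GSK458, with differences of 2.0 and 1.20. CHAC1, which cleaves glutathione and is a target of the ATF4 branch, went another way, at 23.9 FPKM with As2O3, 2.73 FPKM with GSK458, 4.18 FPKM in the control and 4.25 FPKM with both drugs, high with As2O3 alone only.

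In the thioredoxin system, TXNRD1, the selenoenzyme that reduces thioredoxin, stood at 470.5 FPKM with As2O3, 154 FPKM with GSK458, 60.6 FPKM in the control and 563 FPKM with both drugs. SRXN1, which repairs over-oxidised peroxiredoxins, stood at 61.8 FPKM with As2O3, 16.1 FPKM with GSK458, 14 FPKM in the control and 43 FPKM with both drugs. TXNRD1 was more than 2-fold above the control with GSK458 too, and SRXN1 was not. FTL, the ferritin light chain, stood at 6426 FPKM with As2O3, 1892 FPKM with GSK458, 1998 FPKM in the control and 3704 FPKM with both drugs, and ABCB6, a porphyrin transporter, differed by 2.30. FTL shares sequence with pseudogenes, so its level is uncertain. Among the aldo-keto reductases, AKR1C1 stood at 20.1 FPKM with As2O3, 0.843 FPKM with GSK458, 5.13 FPKM in the control and 11.2 FPKM with both drugs and AKR1C3 at 183 FPKM with As2O3 and 56.6 FPKM with GSK458. The AKR1C genes are close paralogs, and reads may have been split between them.

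Of 8 regulators of the pathway, 2 were 2-fold higher with As2O3, namely OSGIN1, a target of NRF2, with a difference of 1.63 and MAFG, a small MAF partner of NRF2, with 1.12. The glutathione peroxidases did not follow, since only 1 of 5 stood higher with As2O3 and GPX3 was far higher with GSK458. GPX4 was level between the drugs, at -0.0015. Metallothioneins, which bind metals through cysteines, were higher with As2O3 in 7 of 7 genes on their list with zinc export, 3 of them by 2-fold. MT2A stood at 816 FPKM with As2O3, 219.9 FPKM with GSK458, 212 FPKM in the control and 473 FPKM with both drugs. MT1X, in contrast, stood at 52.4 FPKM with As2O3, 13.7 FPKM with GSK458, 37.7 FPKM in the control and 14.1 FPKM with both drugs, so its gap came from a low level with GSK458. Metallothioneins are near-identical copies and their levels are uncertain. Of 17 cytosolic heat shock genes 15 were higher with As2O3, but 0 by 2-fold, with CHORDC1, an HSP90 co-chaperone, farthest at 0.94.

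**Figure D3:**
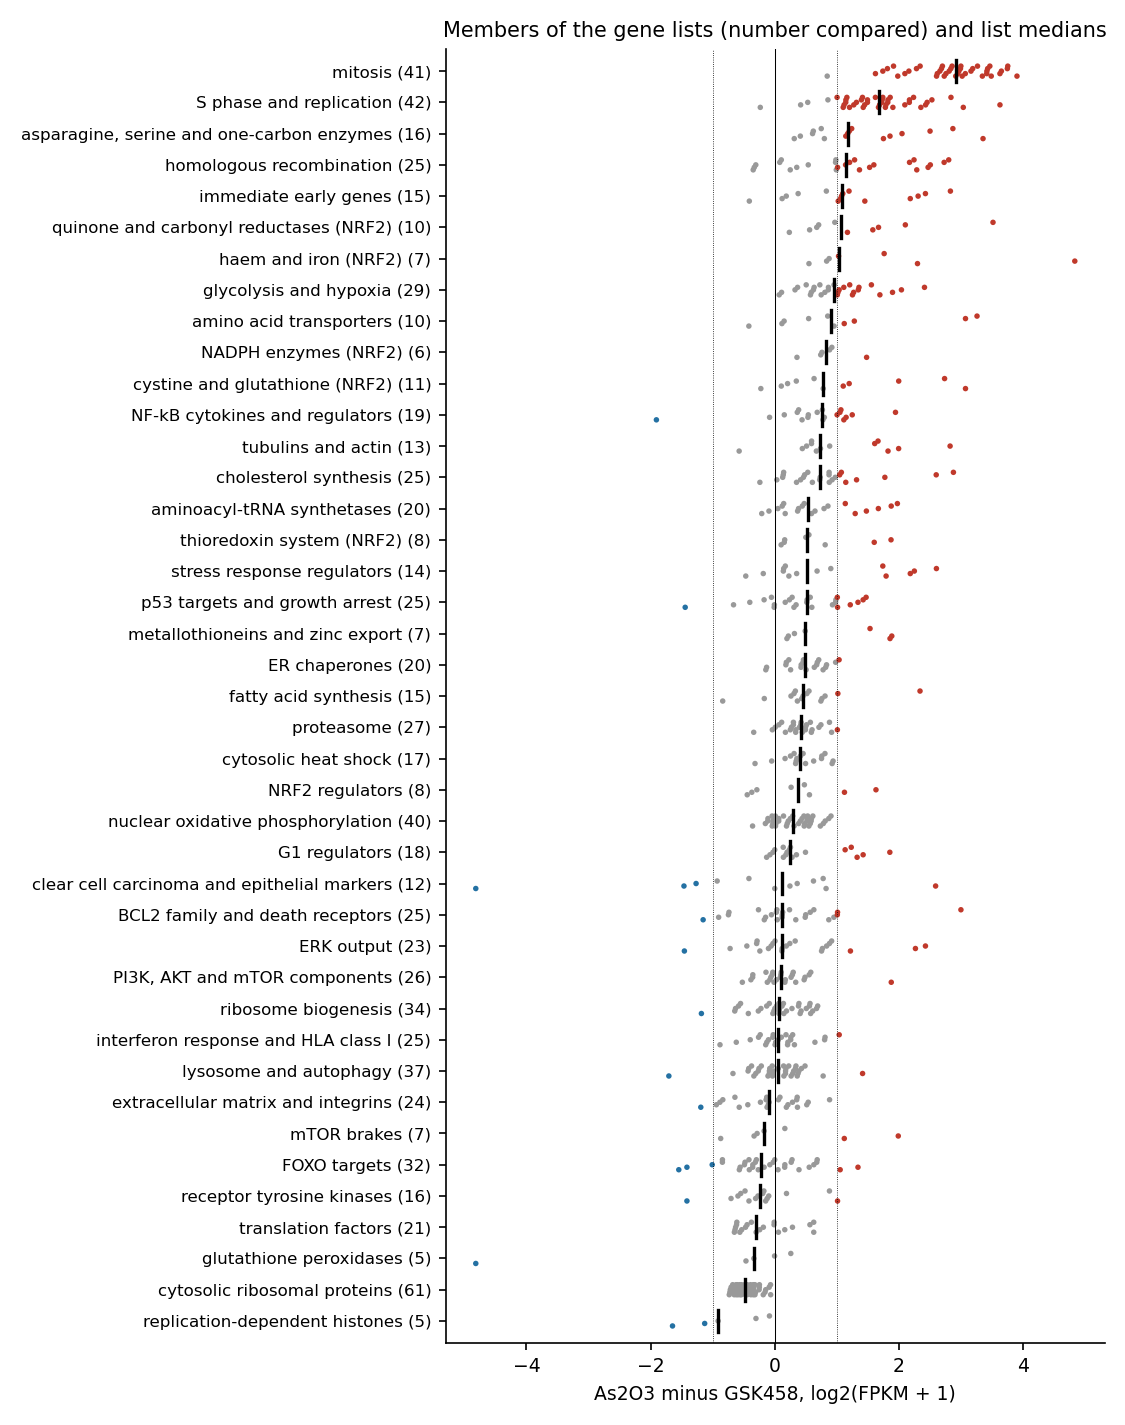
Each point is 1 gene of a list, placed by As2O3 minus GSK458 in log2(FPKM + 1), with the number compared in brackets, for lists of at least 5 genes. Black bars are list medians and dotted lines mark 2-fold, beyond which points are red or blue. The mitosis list reaches farthest to the right with a median of 2.92, and all 61 ribosomal protein genes lie to the left of 0.

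Amino acid supply and its stress regulators made the second group with As2O3 above the control. Of 16 asparagine, serine and one-carbon genes, 16 stood higher with As2O3, 10 of them by 2-fold, with a median of 1.19. That median was 0.63 above the control for As2O3 and -0.56 for GSK458, so the drugs stood on either side of the control. GOT1 stood at 69.6 FPKM with As2O3, 30.9 FPKM with GSK458, 69.1 FPKM in the control and 32.9 FPKM with both drugs, near the control with As2O3 and low with GSK458. MTHFD2, a mitochondrial one-carbon enzyme, stood at 119.8 FPKM with As2O3, 20.3 FPKM with GSK458, 34.4 FPKM in the control and 23.1 FPKM with both drugs. CTH, which makes cysteine from cystathionine, stood at 38.7 FPKM with As2O3, 8.57 FPKM with GSK458, 12.6 FPKM in the control and 18.7 FPKM with both drugs. MTHFD2 and CTH were highest with As2O3 and lowest with GSK458, but the combination was near GSK458 for MTHFD2 and about midway for CTH.

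Amino acid transporters stood higher with As2O3 in 9 of 10 genes, 4 of them by 2-fold. SLC1A5, a glutamine carrier, stood at 84.7 FPKM with As2O3, 34.2 FPKM with GSK458, 48.4 FPKM in the control and 34.7 FPKM with both drugs. Of 20 aminoacyl-tRNA synthetases, 18 were higher with As2O3 and 6 by 2-fold. AARS, which charges alanine tRNA, stood at 101 FPKM with As2O3, 26.7 FPKM with GSK458, 45.5 FPKM in the control and 31 FPKM with both drugs. YARS, which charges tyrosine tRNA, stood at 66.3 FPKM with As2O3, 16.1 FPKM with GSK458, 28.3 FPKM in the control and 17.4 FPKM with both drugs. In all 3 genes the combination was close to GSK458 and below the control, while As2O3 stood above it.

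Among 14 stress regulators 12 were higher with As2O3 and 5 by 2-fold. DDIT3, the factor CHOP, stood at 72.7 FPKM with As2O3, 11.1 FPKM with GSK458, 9.26 FPKM in the control and 13.7 FPKM with both drugs. TRIB3, a pseudokinase induced by ATF4 and CHOP, stood at 72.8 FPKM with As2O3, 14.5 FPKM with GSK458, 16.6 FPKM in the control and 19.2 FPKM with both drugs. ATF3, a repressor of the same family, stood at 17.1 FPKM with As2O3, 2.97 FPKM with GSK458, 1.35 FPKM in the control and 4.7 FPKM with both drugs. In these 3 genes As2O3 alone was several times above every other library. CEBPB, a partner of ATF4, stood at 29.4 FPKM with As2O3, 7.77 FPKM with GSK458, 7.47 FPKM in the control and 20.4 FPKM with both drugs, high in both libraries with As2O3. ATF4 itself, whose output is set mostly by translation, stood at 534 FPKM with As2O3, 485 FPKM with GSK458, 254 FPKM in the control and 443 FPKM with both drugs. Both single-drug libraries were near 2-fold above its control, and they differed by 0.14. Of 7 brakes on mTOR, 3 were higher with As2O3, 2 of them by 2-fold, and 4 with GSK458, with a median of -0.17. DDIT4, a stress-induced one, stood at 1152 FPKM with As2O3, 289 FPKM with GSK458, 1105 FPKM in the control and 306 FPKM with both drugs, near the control with As2O3 and low with GSK458, and SESN2 differed by 1.12 in the same way.

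Immediate early genes, which answer growth factor and stress signals within minutes, stood higher with As2O3 in 14 of 15 genes, 10 of them by 2-fold. FOS stood at 14.5 FPKM with As2O3, 1.18 FPKM with GSK458, 2.13 FPKM in the control and 2.78 FPKM with both drugs. NR4A1, an orphan nuclear receptor, stood at 60.7 FPKM with As2O3, 10.5 FPKM with GSK458, 8.38 FPKM in the control and 21.8 FPKM with both drugs. Both were highest with As2O3 alone. Of 23 ERK output genes 3 were 2-fold higher with As2O3 and 1 with GSK458, beside 4.71% and 2.49% of all genes, so the GSK458 count is near the background. DUSP5, a phosphatase that acts on ERK, stood at 174 FPKM with As2O3, 31.5 FPKM with GSK458, 10.8 FPKM in the control and 83.6 FPKM with both drugs.

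Of 19 NF-kB cytokines and regulators, 17 were higher with As2O3 and 7 by 2-fold. CXCL5, a neutrophil chemokine, stood at 91.6 FPKM with As2O3, 23 FPKM with GSK458, 38 FPKM in the control and 14.1 FPKM with both drugs. CXCL8, the chemokine interleukin 8, stood at 6.5 FPKM with As2O3, 2.16 FPKM with GSK458, 2.68 FPKM in the control and 1.62 FPKM with both drugs. CXCL1, of the same family, stood at 46.9 FPKM with As2O3, 20.6 FPKM with GSK458, 37.5 FPKM in the control and 9.96 FPKM with both drugs. As2O3 was the highest of the 4 libraries in these chemokines and the combination the lowest. CCL2, which attracts monocytes, ran the other way at 0.822 FPKM with As2O3, 5.82 FPKM with GSK458, 4.88 FPKM in the control and 1.38 FPKM with both drugs, low in both libraries with As2O3.

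Growth arrest and death genes were mixed. Of 25 p53 targets, 6 were 2-fold higher with As2O3 and 1 with GSK458, beside 4.71% and 2.49% of all genes. The GSK458 count is near that background. CDKN1A, the inhibitor p21, stood at 244 FPKM with As2O3, 90.4 FPKM with GSK458, 79.7 FPKM in the control and 105 FPKM with both drugs, high with As2O3 alone. TP53I3, a quinone oxidoreductase, stood at 14.5 FPKM with As2O3, 41.1 FPKM with GSK458, 29.3 FPKM in the control and 38.3 FPKM with both drugs, lowest with As2O3. In the BCL2 family, PMAIP1, which encodes the BH3-only protein NOXA, stood at 14.6 FPKM with As2O3, 0.953 FPKM with GSK458, 1.95 FPKM in the control and 2.32 FPKM with both drugs. BMF, another BH3-only gene and a known FOXO target, stood at 9.69 FPKM with As2O3, 22.8 FPKM with GSK458, 7.24 FPKM in the control and 22.5 FPKM with both drugs. These 2 death genes were thus each high with a different drug, and only BMF kept its level in the combination.

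Cell division genes were the largest group, and here the gap came from GSK458. Of 41 mitotic genes 40 stood at least 2-fold higher with As2O3 against 4.71% of all genes, with a median of 2.92. The median against the control was 0.36 with As2O3 and -2.56 with GSK458. In each of the 40, GSK458 was at least 2-fold below the control and As2O3 was not 2-fold from it. In bulk RNA, fewer dividing cells and less RNA per dividing cell cannot be told apart.

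PLK1, a kinase of mitotic entry, stood at 49.8 FPKM with As2O3, 3.04 FPKM with GSK458, 38 FPKM in the control and 8.69 FPKM with both drugs. AURKB, the kinase of the chromosomal passenger complex, stood at 60.3 FPKM with As2O3, 3.56 FPKM with GSK458, 41.9 FPKM in the control and 7.57 FPKM with both drugs. UBE2C, the ubiquitin-conjugating enzyme of the anaphase-promoting complex, stood at 144 FPKM with As2O3, 8.72 FPKM with GSK458, 90.2 FPKM in the control and 18.3 FPKM with both drugs. In all 3 As2O3 was the highest library and GSK458 the lowest, with the combination above GSK458 and well below the control. CDC20, an activator of the same complex, differed by 3.63, KIF2C, a kinesin that removes microtubule ends, by 3.76, and MKI67, the proliferation marker Ki-67, by 3.49. CDC25B was the exception on the list, at 0.85.

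Of 42 S phase genes 38 were 2-fold higher with As2O3, with a median of 1.68. RRM2, the regulated subunit of ribonucleotide reductase, stood at 28.2 FPKM with As2O3, 1.36 FPKM with GSK458, 52.1 FPKM in the control and 2.41 FPKM with both drugs. CDC6, which loads the replicative helicase, stood at 14.8 FPKM with As2O3, 0.928 FPKM with GSK458, 12.5 FPKM in the control and 2.32 FPKM with both drugs. RRM2 was below the control with both drugs and far lower with GSK458, while CDC6 was near the control with As2O3 and low with GSK458. MCM7 was the only S phase gene higher with GSK458, at -0.23. The S phase median against the control was -0.16 with As2O3, on the other side of 0 from the mitotic one.

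Homologous recombination followed, with 14 of 25 genes 2-fold higher with As2O3. RAD54L, a motor protein of strand exchange, stood at 9.37 FPKM with As2O3, 0.564 FPKM with GSK458, 7.84 FPKM in the control and 1.75 FPKM with both drugs, near the control under As2O3 and low under GSK458. Among G1 regulators 5 of 18 were 2-fold higher with As2O3, and they split by which drug stood away from the control. CDK2 and the CDK inhibitor CDKN2C were low with GSK458, with differences of 1.33 and 1.86. CDKN1A and CDKN2D, also CDK inhibitors, were above the control with As2O3. CCND3 was 2-fold from the control with neither drug, at 0.61 with As2O3 and -0.63 with GSK458. Of 13 tubulin and actin genes 12 were higher with As2O3, 5 of them by 2-fold. TUBA1B stood at 594 FPKM with As2O3, 82.9 FPKM with GSK458, 535 FPKM in the control and 138 FPKM with both drugs, low with GSK458, while TUBA4A, at 55.7 FPKM with As2O3 and 20.4 FPKM in the control, was above the control with As2O3. Tubulin genes share much sequence, so their single levels are uncertain.

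**Figure D4:**
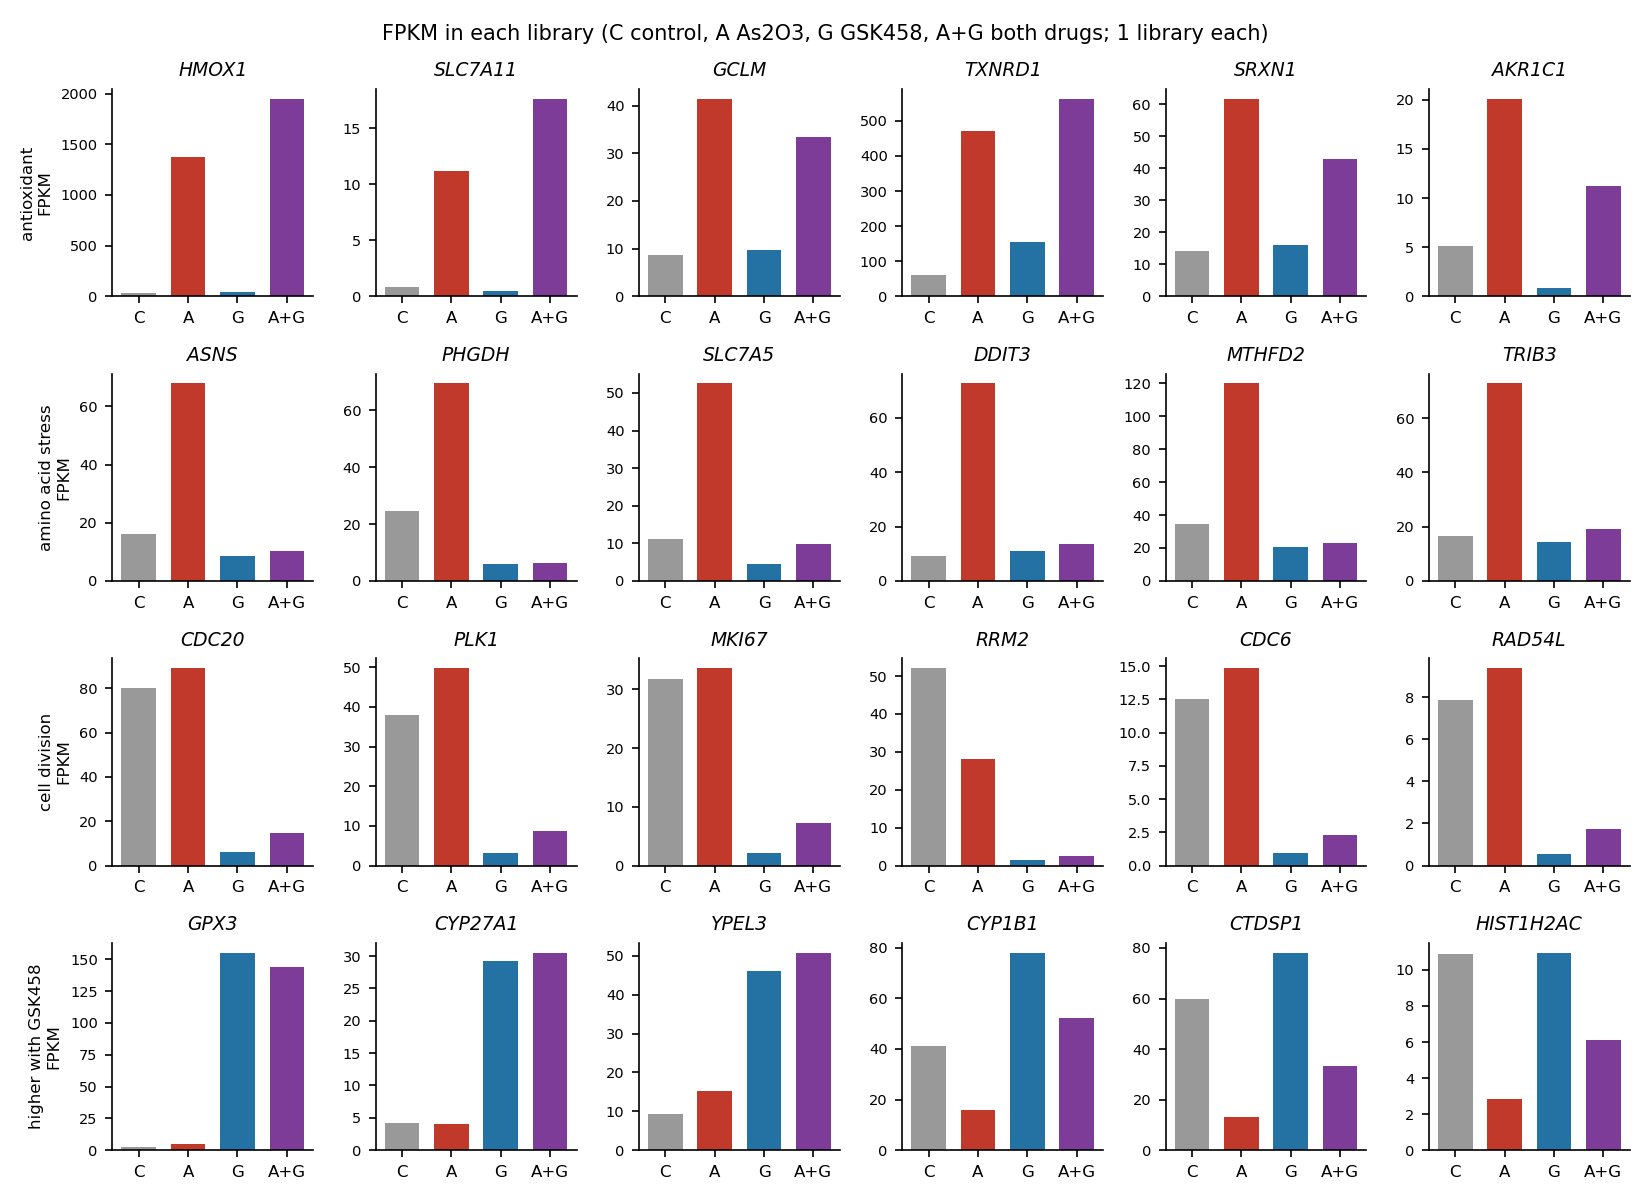
Bars give FPKM from 0 in the control (C), As2O3 (A), GSK458 (G) and combination (A+G) libraries, 1 library each with no error, for 6 genes in each of 4 groups, with a separate axis for each gene. Antioxidant genes are high in A and A+G, amino acid and stress genes in A alone, and cell division genes are low in G and A+G. The lowest row holds genes higher in G than in A, of which GPX3, CYP27A1 and YPEL3 are high in G and A+G, and CYP1B1, CTDSP1 and HIST1H2AC are low in A.

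Glycolysis, cholesterol and fatty acid genes were mostly higher with As2O3, and the gap came mostly from GSK458. Of the 23 genes at 2-fold in these lists, GSK458 was the drug farther from the control in 17 and As2O3 in 6. Of 29 glycolysis and hypoxia genes, 29 stood higher with As2O3 and 14 by 2-fold, with a median of 0.96. With GSK458, 10 of the 29 were 2-fold below the control, and with As2O3, 5 were 2-fold above it. SLC2A3, a glucose transporter, stood at 25.8 FPKM with As2O3, 4.04 FPKM with GSK458, 7.95 FPKM in the control and 5.49 FPKM with both drugs. HK2, a hexokinase, stood at 10.1 FPKM with As2O3, 1.7 FPKM with GSK458, 6.78 FPKM in the control and 2.94 FPKM with both drugs. SLC2A3 was above the control with As2O3, and HK2 was below it with GSK458. SLC2A1, the other main glucose transporter of the list, stood at 24.8 FPKM with As2O3, 5.91 FPKM with GSK458, 15 FPKM in the control and 14.4 FPKM with both drugs, with the combination near the control.

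Of 25 cholesterol genes 24 stood higher with As2O3 and 7 by 2-fold, with a median of 0.73. ACAT2, a thiolase at the start of the pathway, stood at 36 FPKM with As2O3, 9.8 FPKM with GSK458, 36.6 FPKM in the control and 11.3 FPKM with both drugs. INSIG1, which holds the SREBP machinery in the endoplasmic reticulum, stood at 25.6 FPKM with As2O3, 3.38 FPKM with GSK458, 8.09 FPKM in the control and 3.81 FPKM with both drugs. Both were similarly low in the 2 libraries with GSK458, and INSIG1 alone was above the control with As2O3. SCD, the desaturase that makes oleate, stood at 195 FPKM with As2O3, 37.7 FPKM with GSK458, 163 FPKM in the control and 36.2 FPKM with both drugs. SCD, like ACAT2, was near the control with As2O3.

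Smaller differences ran through other housekeeping lists. Proteasome genes stood higher with As2O3 in 25 of 27, with a median of 0.42. Only 1 of them, PSMB3, was at 2-fold, beside 4.71% of all genes, so that count is near the background. ER chaperones did so in 18 of 20, with a median of 0.49, and nuclear oxidative phosphorylation genes in 31 of 40, with a median of 0.30 and 0 at 2-fold. EIF4EBP1 encodes the repressor of cap-dependent translation that mTOR phosphorylates. It stood at 137 FPKM with As2O3, 36.5 FPKM with GSK458, 60.1 FPKM in the control and 45.9 FPKM with both drugs. It was the 1 gene of 26 PI3K, AKT and mTOR components at 2-fold, beside 4.71% of all genes. That count is near the background and is no result about the list.

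Genes higher with GSK458 were fewer and rarely shared a list. CYP27A1, a sterol hydroxylase, stood at 4.1 FPKM with As2O3, 29.3 FPKM with GSK458, 4.26 FPKM in the control and 30.5 FPKM with both drugs. TMEM27, the renal amino acid transport partner collectrin, stood at 3.09 FPKM with As2O3, 25.8 FPKM with GSK458, 5.95 FPKM in the control and 20.5 FPKM with both drugs. SPON2, a secreted matrix protein, stood at 1.72 FPKM with As2O3, 15.2 FPKM with GSK458, 3.76 FPKM in the control and 20.3 FPKM with both drugs. In all 3, as in GPX3, both libraries with GSK458 were high and both without it low. SHISA2, an inhibitor of Wnt and FGF receptor maturation, differed by -2.67 with the same order.

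NEAT1, the long RNA that builds paraspeckles, stood at 20 FPKM with As2O3, 87.3 FPKM with GSK458, 28.6 FPKM in the control and 130.2 FPKM with both drugs, and was highest in the combination. H3F3A, which encodes histone H3.3, was listed at 9.47 FPKM with GSK458 and 12.5 FPKM with both drugs, but at 0.0134 FPKM with As2O3 and 0.00991 FPKM in the control. A histone of this kind is expressed in most cells, and H3F3A shares sequence with pseudogenes, so its value is uncertain. IQCH-AS1 differed by -2.16. It is an antisense gene, and no source used here gives the strand setting of the quantification, so its value is uncertain. MTRNR2L2 and MTRNR2L8, nuclear copies of a mitochondrial ribosomal RNA, differed by -1.78 and -1.69, and share sequence with it, so their levels are uncertain.

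In other genes the gap came mostly from As2O3. CTDSP1, a phosphatase of RNA polymerase II, stood at 13.1 FPKM with As2O3, 78.1 FPKM with GSK458, 59.7 FPKM in the control and 33.5 FPKM with both drugs. CYP1B1, which hydroxylates estrogens and polycyclic hydrocarbons, stood at 15.8 FPKM with As2O3, 78 FPKM with GSK458, 41.1 FPKM in the control and 52.3 FPKM with both drugs. Both were lowest with As2O3. Against the control CYP1B1 was at -1.32 with As2O3 and 0.91 with GSK458, so part of its gap was a higher level with GSK458. RIMKLB, on the list of clear cell markers, was instead high with GSK458 and higher still in the combination, at 36.5 FPKM with As2O3, 89.1 FPKM with GSK458, 18.2 FPKM in the control and 224 FPKM with both drugs. Of the 12 markers compared, 1, TFPI2, stood 2-fold higher with As2O3, and GPX3 and RIMKLB were among those 2-fold higher with GSK458. HIST1H2AC stood at 2.82 FPKM with As2O3, 11 FPKM with GSK458, 10.9 FPKM in the control and 6.09 FPKM with both drugs. Of 17 replication-dependent histones listed, 5 passed the filter, and all 5 were higher with GSK458. Such histone mRNAs carry little poly(A), and mRNA kits recover them in part.

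FOXO targets, which AKT restrains, and growth factor receptors, which signal to PI3K, were compared as well. Of 32 FOXO targets, 3 were 2-fold higher with GSK458, namely YPEL3, IGF1R and CITED2, and 2 with As2O3, namely GADD45A and BCL6, beside 2.49% and 4.71% of all genes. The As2O3 count is near that background. The list's median difference was -0.22, with both drugs above the control, by 0.25 for As2O3 and 0.42 for GSK458. IGF1R, the receptor for insulin-like growth factor, stood at 2.11 FPKM with As2O3, 7.28 FPKM with GSK458, 2.41 FPKM in the control and 8.21 FPKM with both drugs. YPEL3, a small protein linked to growth arrest, stood at 15.2 FPKM with As2O3, 46.2 FPKM with GSK458, 9.26 FPKM in the control and 50.8 FPKM with both drugs. Both were high in the 2 libraries with GSK458. Of 16 receptor tyrosine kinases, 13 were higher with GSK458, though 1 by 2-fold, and FGFR4 was 2-fold higher with As2O3 at 1.01. Beside 2.49% and 4.71% of all genes, 1 gene each way is near the background and is no result about the list.

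Ribosomal protein genes stood together on the GSK458 side, by less than 2-fold. All 61 cytosolic ribosomal protein genes compared stood higher with GSK458, with a median of -0.47 and a range from -0.73 to -0.06. Against the control the median was 0.08 with As2O3 and 0.54 with GSK458. RPL34 stood at 422 FPKM with As2O3, 701 FPKM with GSK458, 411 FPKM in the control and 623 FPKM with both drugs. These genes have many processed pseudogenes, so single levels are uncertain. Of 21 translation factors 15 were higher with GSK458 and 6 with As2O3, none by 2-fold, with EIF3E at -0.65 and EIF4B at -0.64. Ribosome biogenesis genes were divided, with 22 of 34 higher with As2O3 and a median of 0.07, and the median changed sign under upper-quartile scaling (-0.0106).

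The combination library showed which drug's level a gene took when both were present. Its position was expressed in percent of the log2 difference, with 0 at the GSK458 level and 100 at the As2O3 level. It stood on the GSK458 side of the midpoint in 529 of the 574 genes (92.2%) and in 281 of the 304 (92.4%), with median positions of 19.1% and 15.2%. Across all 12190 genes the log2 difference between the combination and GSK458 had an SD of 0.26, against 0.54 between the combination and As2O3. The 2 libraries with GSK458 had 82 genes at 2-fold between them, fewer than the other 5 pairs, which had 394 to 888.

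The antioxidant genes were placed otherwise. Of their 17 genes at 2-fold, 13 stood on the As2O3 side in the combination, with a median position of 85%. HMOX1, SLC7A11, TXNRD1, GCLC and NQO1 lay beyond the As2O3 level, at 110.4%, 119.9%, 116%, 113% and 118%. These were the 5 genes of the 574 to do so, and NQO1, the quinone reductase, was named after its values were seen. The 4 on the GSK458 side were ABCB6, BLVRB, CHAC1 and NQO2. The 25 genes at 2-fold in the amino acid and stress lists had a median position of 10.9%, and 3 of them, SLC7A11, CEBPB and CTH, stood on the As2O3 side. SLC7A11 is in both sets. All 92 cell division genes at 2-fold stood on the GSK458 side, with a median of 22.6%.

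**Figure D5:**
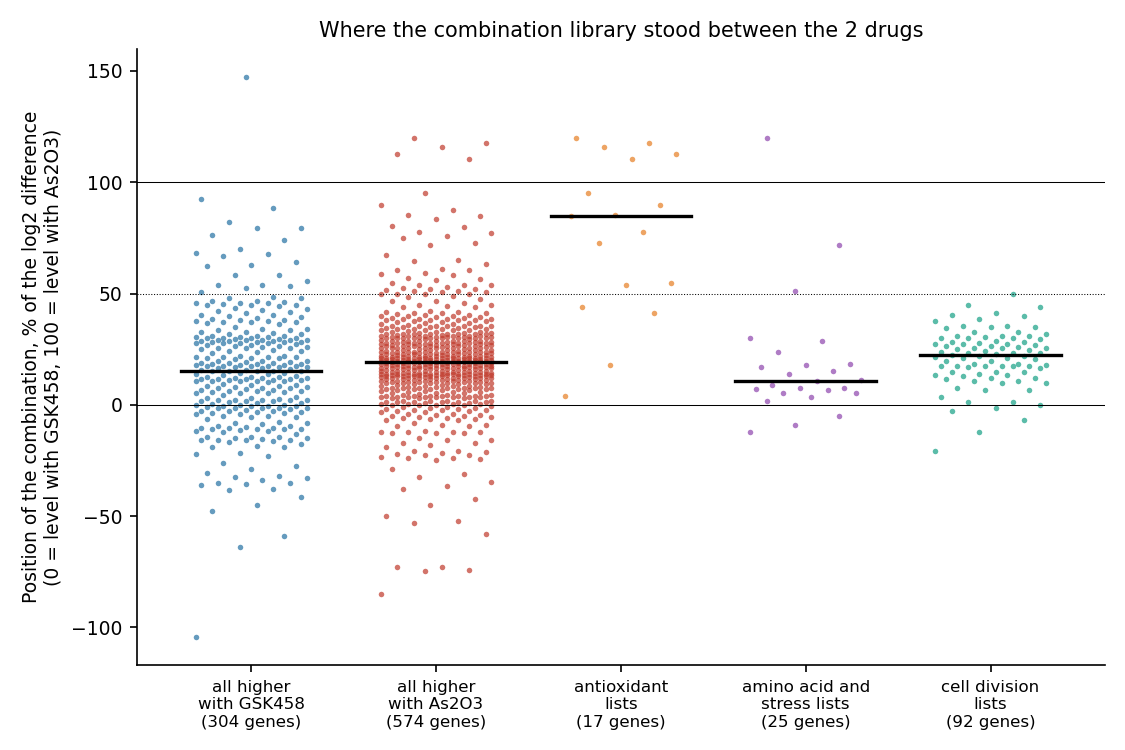
Each point is 1 gene at least 2-fold apart between the drugs, and the y axis gives the position of the combination library in percent of the log2 difference, from 0 at the GSK458 level to 100 at the As2O3 level. Black bars are medians, at 15.2%, 19.1%, 85%, 10.9% and 22.6% from left to right, and the antioxidant lists are the set with most points above the midpoint.

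Metabolic genes resembled the cell division genes in this respect, with 20 of 23 on the GSK458 side, and the 7 cholesterol genes had a median position of 3.81%. The 7 NF-kB genes had a median of -53.0%, below the GSK458 level, with CXCL1 at -84.9% and CCL20 at -72.7%. Of the 106 genes that were 2-fold higher with As2O3 than with GSK458 and than the control, 34 stood on the As2O3 side in the combination, and 12 of these were in the antioxidant lists. The others included DUSP5, TFPI2 and GDF15, described above. On the opposite side, CCL2 was 1 of 23 genes higher with GSK458 whose combination level was nearer to As2O3, at 79.6%.

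Promoter letters were then compared over windows from 250 bases before to 50 after the start, on both strands, for the 9887 compared genes with an entry in the RefSeq table. TTTGAA occurred in 68.6% of 35 mitotic promoters, 9.13% of compared genes and 15.4% of all 27305 promoters. CCAAT occurred in 71.4% of the mitotic promoters and 37.2% of compared genes. TTTNNCGC, a form of the E2F element, occurred in 59.5% of 37 S phase promoters and 10.8% of compared genes. TGATGNAA occurred in 27.3% of 11 promoters of the asparagine, serine and one-carbon list and 1.46% of compared genes. The 3 such windows shown for amino acid genes and the 3 for mitotic genes come from these sets or, for AARS, from the synthetases. TGACNNNGC, the antioxidant response element core, occurred in 15.4% of compared genes. Its share was 23.3% in 86 promoters of genes at least 2-fold higher with As2O3 than with GSK458 and than in the control. It was 22.9% in the mitotic and 21.6% in the S phase promoters, so a share of this size was not particular to that set. GTAAACA, a FOXO element, occurred in 3 of 76 promoters (3.95%) of genes at least 2-fold higher with GSK458 than with As2O3 and than in the control. Its share was 2.32% of compared genes, 3.41% of all 27305 promoters and 3.49% of the 86 promoters above. In 39 promoters of genes higher with GSK458 and below the control with As2O3 it was 5.13%. Among all genes at least 2-fold higher with GSK458 it occurred in 11 of 229 promoters (4.80%). The share was 2.35%, or 11 of 469, for all genes at least 2-fold higher with As2O3. These shares rest on few promoters, and the difference between them was not tested. These matches describe letters in the windows, and binding was not measured.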

How the data were processed

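Values were used in the unit the authors deposited, FPKM per gene symbol, in a table with 1 column for each of the 4 libraries. The submitters' processing notes name Cuffdiff 2.2.1, TopHat2 2.1.1, SAMtools 0.1.18, Bowtie2 2.2.8 and the build hg19 without their roles. No source used here gives the annotation, the strand setting or the handling of multiply mapped reads, so levels of paralogs, pseudogene-rich families, overlapping and antisense genes are uncertain.

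Differences were taken on the log2(FPKM + 1) scale with Python 3.11.15, numpy 2.4.6 and pandas 2.3.3, and figures drawn with matplotlib 3.10.9. Genes needed a mean of at least 1 FPKM. Relative depth came from genes below 0.5 FPKM in both single-drug libraries, where 174 of 591 ratios near 1 were equal at 1.128. The counting was tested on simulated data. The members and the 45 gene lists were chosen with earlier results of these data known. Named genes were the 12 most different each way with at least 5 FPKM in either library, up to 4 members each way of each list that reached 2-fold (or the 2 farthest if none did), the 4 largest in each class of which drug stood away from the control, the 3 markers and the genes at the thresholds. Marker genes of cell types and list exceptions (ATF4, CDC25B, CDKN2D, MCM7, GOT1, NQO1 and others of named classes) are named besides, the exceptions after their values were seen, and some genes that the rule picks are left out and not reported here. Promoter sequences are RefSeq's for GRCh38.p14 and were matched by symbol, with no coordinate taken from hg19. The 10 alternatives were a filter at a mean of 5 FPKM, over the 2 single-drug libraries only or absent, a pseudocount of 0.1 or 5 FPKM, 3 scalings of the libraries, small RNA symbols kept and a threshold of 1.5-fold.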

Additional observations from a re-analysis of the deposited data

How the results depend on the processing

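Of 80 counts recomputed under the 10 alternatives, 56 stayed within 1.5 times and 24 did not. With a pseudocount of 0.1 FPKM, genes higher with GSK458 numbered 598, of which 166 stood away from the control with As2O3 alone, 171 with GSK458 alone and 243 with neither. With a pseudocount of 5 FPKM they numbered 69, with 10, 33 and 26 in those classes, and genes higher with As2O3 numbered 311, with 52, 172 and 80. With a mean of at least 5 FPKM, genes higher with GSK458 numbered 182, with 28 for As2O3 alone and 85 for neither. At 1.5-fold, 1454 genes were higher with As2O3, with 310, 660 and 367 in the classes, and 1202 with GSK458, with 325, 426 and 381. Libraries rescaled to a sum of 1000000 gave 93 genes higher with GSK458 and away from the control with As2O3 alone, against 54. The share of 2-fold genes higher with As2O3, 65.4% as reported, was 55.0% and 81.8% under the smaller and larger pseudocount, 56.4% under upper-quartile scaling and 54.7% at 1.5-fold.

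The mitosis median was 1.94 with a pseudocount of 5 FPKM, and the histone median was -0.30 without the filter. Medians near 0 changed sign, namely that of the clear cell markers without the filter (-0.13), and under upper-quartile scaling those of ribosome biogenesis (-0.0106), lysosome (-0.0331) and interferon genes (-0.0201). The cause was not tested. The other 362 list values kept their sign and moved by less than 1.5 times in fold, and the ribosomal protein median lay between -0.56 and -0.44. The combination stood on the GSK458 side in 88.8% to 92.2% of genes higher with As2O3 and in 88.3% to 97.3% of genes higher with GSK458. None of the 136 named genes at 2-fold changed sign, and 49 of the 145 named genes moved by more than 1.5 times in fold under at least 1 of 3 alternatives. No paired analysis was possible because each group has 1 library, and no replicate could be left out. The absolute depth is unknown, so no limit is given for genes listed at 0.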

Other observations

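Some of the widest single-gene gaps, those of VGF and FAM64A, lay outside the gene lists. VGF, a neuropeptide precursor, stood at 23.3 FPKM with As2O3, 0.619 FPKM with GSK458, 0.581 FPKM in the control and 1.67 FPKM with both drugs, high with As2O3 alone. FAM64A, a regulator of the metaphase to anaphase step, stood at 30.6 FPKM with As2O3, 1.08 FPKM with GSK458, 19 FPKM in the control and 4.18 FPKM with both drugs. PARP2, a DNA repair enzyme, differed by 1.52 with neither drug 2-fold from the control. That is near the median of 1.48 for the 574 genes higher with As2O3. Among the listed death genes, BBC3, which encodes PUMA, and TNFRSF10B, a TRAIL receptor, were just 2-fold higher with As2O3, at 1.01 and 1.01. Neither was 2-fold above the control.

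Among genes higher with GSK458 where neither drug was 2-fold from the control, HOXA6, a homeobox gene, stood at 11.9 FPKM with As2O3, 37 FPKM with GSK458, 21 FPKM in the control and 47.7 FPKM with both drugs, and SFRP1, a secreted Wnt antagonist, at 6.0 FPKM with As2O3, 20.3 FPKM with GSK458, 12.4 FPKM in the control and 12 FPKM with both drugs. HOXA6 was highest in the combination, while SFRP1 was at the control level there. Of 37 lysosome and autophagy genes 1 was 2-fold apart in each direction, which is near or below the 4.71% and 2.49% of all genes and is no result about the list. FAM134B, a receptor for autophagy of the endoplasmic reticulum, stood at 0.899 FPKM with As2O3, 5.19 FPKM with GSK458, 0.365 FPKM in the control and 6.16 FPKM with both drugs, and GLA, the lysosomal galactosidase, at 60.9 FPKM with As2O3, 22.2 FPKM with GSK458, 49.4 FPKM in the control and 32.7 FPKM with both drugs. COL7A1, the anchoring fibril collagen, was the 1 gene of 24 in the matrix list at 2-fold, beside 7.2% of all genes in either direction. That count is near or below the background and is no result about the list. COL7A1 stood at 3.09 FPKM with As2O3, 8.33 FPKM with GSK458, 2.08 FPKM in the control and 6.66 FPKM with both drugs. EPHA4, an ephrin receptor, differed by -1.45.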
